A study of Mus musculus with 10 samples.

Results

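The 9 genes described here encode parts of the phagocyte NADPH oxidase and enzymes that remove its products: Cybb, Cyba, Ncf1 and Ncf4 of the oxidase, the superoxide dismutases Sod1 and Sod2, the peroxide-removing enzymes Cat and Gpx1, and the transcription factor gene Nfe2l2. They were chosen by gene name from 24033 gene names, and all 9 were found and passed the filter on low values. The RNA came from microglia, the macrophages of the brain tissue itself, and the study asked what the loss of 1 or both copies of Trem2, a lipid-sensing receptor of myeloid cells, does to adult microglia. The 10 libraries came from C57BL/6 mice aged 3 to 5 months, with no injury or other treatment named in the labels. The KO group (Trem2-/-) held 3 libraries, numbered 6 (female), 9 and 12 (both male). The Het group (Trem2+/-) held 3 libraries, numbered 5 and 11 (both female) and 8 (male). The WT group (Trem2+/+) held 4 libraries, numbered 1 and 10 (both female) and 4 and 7 (both male). Magnetic beads against CD11b, an integrin subunit that neutrophils, monocytes and border macrophages carry as well, were used to isolate the cells, and total RNA was amplified into cDNA with the Ovation RNA-seq system v2 and sequenced on a HiSeq4000. The sources used here give neither the bases of Trem2 that were removed nor whether a library held 1 mouse or a pool, so a p-value reflects only how much these libraries varied.

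The phagocyte NADPH oxidase, NOX2, is a membrane complex that passes electrons from NADPH to oxygen and so makes superoxide. Its membrane core is silent until cytosolic subunits and a Rac GTPase join it, and in the brain microglia and invading phagocytes are its main carriers. Superoxide dismutases turn superoxide into hydrogen peroxide, catalase and glutathione peroxidases turn hydrogen peroxide into water, and NRF2, the product of Nfe2l2, switches on many antioxidant genes when its inhibitor KEAP1 releases it.

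Between 17.61 M and 45.03 M reads were recovered for each library, with 6 libraries under 30 M and 4 over 30 M (KO 9 and 12, Het 11 and WT 10). Trem2 RPKM was 24.5 ± 3.52 in KO (SD, n = 3), 93.9 ± 9.98 in Het (n = 3) and 191.5 ± 31.1 in WT libraries (n = 4), in the order of the labels. All 8 microglia markers were detected, and their summed RPKM was 8905 to 10100 in KO, 8320 to 9720 in Het and 8792 to 10110 in WT libraries. KO library 6 stood apart: the summed RPKM of 11 neutrophil markers was 2291 there, against 368 and 379 in the other KO libraries, 143 to 354 in Het and 103 to 222 in WT libraries. In that library Elane and Mpo, granule protease and peroxidase genes of neutrophil precursors, reached 6.53 and 6.02 RPKM. The sum over 8 monocyte markers was 117 RPKM in KO 6, 40.7 and 43.8 in KO 9 and 12, 28.2 to 41.6 in Het and 22.9 to 39.3 in WT libraries. The 7 border macrophage markers, 1 of them also on the monocyte list, summed to 95.3 to 166 RPKM in KO, 104 to 174 in Het and 84.7 to 137 in WT libraries, and the globin genes Hba-a1, Hba-a2, Hbb-bs and Hbb-bt were listed at 0 in all 10 libraries.

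The promoters of Cybb, Cat and Nfe2l2 are shown because these genes were among the 4 with the widest spread over WT libraries, as described with their values. Each line gives the 250 bases before the RefSeq start (GRCm38.p6), read on the gene's strand, with matches to 3 motifs in capitals: TGACNNNGC, the core of the antioxidant response element that NRF2 binds, CCAAT, the box bound by NF-Y, and TGANTCA, the AP-1 element.
Cybb (chrX:9469325-9469574, minus strand): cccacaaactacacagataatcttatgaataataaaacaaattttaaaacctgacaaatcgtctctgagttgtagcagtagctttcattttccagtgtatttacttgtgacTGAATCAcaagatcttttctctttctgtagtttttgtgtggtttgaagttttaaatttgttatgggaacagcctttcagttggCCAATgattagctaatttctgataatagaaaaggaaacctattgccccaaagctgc
Cat (chr2:103485154-103485403, minus strand): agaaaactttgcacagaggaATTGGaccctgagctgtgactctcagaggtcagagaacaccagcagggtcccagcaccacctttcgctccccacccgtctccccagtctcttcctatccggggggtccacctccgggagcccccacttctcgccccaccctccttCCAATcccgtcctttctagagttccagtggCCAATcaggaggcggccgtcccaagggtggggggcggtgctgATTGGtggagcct
Nfe2l2 (chr2:75704664-75704913, minus strand): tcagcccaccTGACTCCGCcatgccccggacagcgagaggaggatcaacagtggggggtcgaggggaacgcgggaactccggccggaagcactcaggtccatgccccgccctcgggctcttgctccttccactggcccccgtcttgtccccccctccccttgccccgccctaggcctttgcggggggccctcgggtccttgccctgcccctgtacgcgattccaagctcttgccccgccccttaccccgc
Both strands were searched, so CCAAT also appears as ATTGG. The Cybb window held TGANTCA from -139 to -133 and CCAAT from -56 to -52, counted back from the start. The Cat window held 4 CCAAT matches, at -230 to -226 and -13 to -9 on the reverse strand and at -85 to -81 and -55 to -51 on the gene's strand. The Nfe2l2 window held TGACNNNGC from -240 to -232. The TGANTCA match reads the same on both strands, and no match of 1 motif overlapped a match of another in these windows. RefSeq and GENCODE M21 place some starts differently: all 250 bases of the Cybb window lie within the GENCODE span of the gene, though in none of its exons, and 7 bases of the Cat window lie in its first exon, whereas the Nfe2l2 window lies outside the gene. For Gpx1, the fourth of these genes, 177 of the 250 bases lie in GENCODE exons, and that window is not printed. RefSeq promoters were in the table used for 8 of the 9 genes, all but Ncf4. CCAAT was present in 4 of the 8 (Cat, Cybb, Sod1 and Sod2), against 33.8% of 32851 mouse promoters. TGACNNNGC was present in 2 of the 8 (Nfe2l2 and Sod1), against 10.2%, and TGANTCA in 1 of the 8 (Cybb), against 6.75%. A match describes the letters in the window and does not show that a factor was bound.

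All 9 genes were well expressed in WT microglia. On the RPKM scale, which is per gene length, the mean level in WT libraries ran, from high to low, Nfe2l2 (249), Ncf1 (156), Cat (140), Sod1 (125), Gpx1 (87.2), Cyba (45.2), Ncf4 (20.5), Cybb (17.4) and Sod2 (10.4). The WT ranges of neighbours overlapped for Ncf1 and Cat, for Cat and Sod1 and for Ncf4 and Cybb, and not for the other 5 pairs. Nfe2l2 stood above 99.0% of the 13621 genes tested and Cybb above 76.0%. Each value rested on at least 488 recovered reads in every library. Over the 10 libraries the highest value was 2.44 times the lowest for Cybb, 2.02 times for Cat and 1.76 times for Gpx1. It was 1.16 times for Ncf1, which varied least. Over 5492 genes with a mean of at least 9 RPKM the median was 1.45 times.

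No gene of the 9 changed with Trem2 genotype in limma's test at an adjusted p under 0.05. In KO against WT, 0 of 9 were called, against 0.00734% of all genes tested, which was Trem2 alone. At an unadjusted p under 0.05 the count was 2 of 9 (Cybb and Gpx1), against 5.13% of all genes; both were higher in KO, as were 3.32% of all genes at that p. In Het against WT, 0 of 9 were called, against 0% of all genes, and 0 of 9 had an unadjusted p under 0.05, against 2.75%. In KO against Het, 0 of 9 were called, against 0.00734%, and 0 of 9 had an unadjusted p under 0.05, against 3.35%. With limma-voom on recovered reads the count of the 9 called was also 0 in each of these comparisons. For every one of the 9 genes the KO and WT ranges, the Het and WT ranges and the KO and Het ranges overlapped, whereas ranges lay apart for 4.59%, 4.53% and 7.42% of all genes in those comparisons. The median log2 difference over the 9 was 0.00 in KO against WT (0.03 over all genes), 0.08 in Het against WT (0.00) and -0.06 in KO against Het (0.03). KO and Het were set against the same 4 WT libraries, so those differences are not independent of each other. In these bulk libraries fewer cells of a type and less RNA per cell cannot be told apart.

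**Figure D1:**
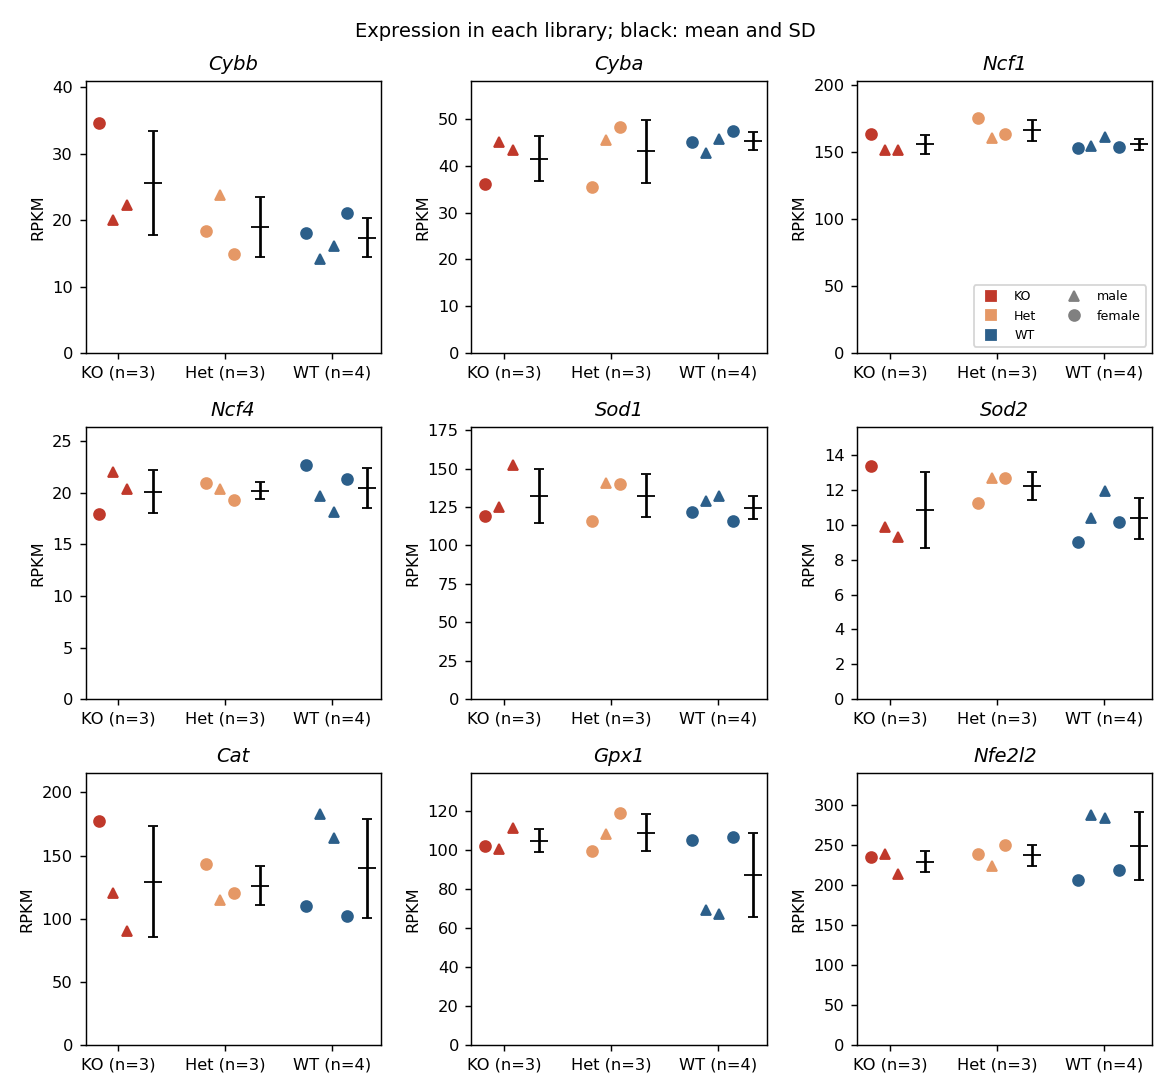
RPKM of each gene (vertical axes, from 0) in the 3 KO, 3 Het and 4 WT libraries, with males as triangles, females as circles and the mean with SD in black. The genotype ranges overlap in all 9 panels; Cybb is highest in the female KO library (34.6 RPKM), and the 2 male WT libraries lie apart from the rest for Gpx1 (69.3 and 67.5 RPKM).

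Cybb encodes gp91phox, the catalytic subunit that carries the electrons across the membrane, and lies at chrX:9435252-9487771 on the minus strand (GRCm38, GENCODE M21). Its RPKM was 34.6, 20.0 and 22.3 in KO libraries 6, 9 and 12, 18.4, 23.9 and 14.9 in Het libraries 5, 8 and 11, and 18.1, 14.2, 16.2 and 21.1 in WT libraries 1, 4, 7 and 10. KO 6 was the highest of the 10 libraries, while KO 9 and KO 12 lay close to the highest WT value. The mean was 25.6 ± 7.84 RPKM in KO (SD, n = 3), 19.1 ± 4.50 in Het (n = 3) and 17.4 ± 2.97 in WT (n = 4). The log2 difference between KO and WT was 0.55 (SE 0.20, 95% interval 0.11 to 1.00), with a limma adjusted p of 0.942, so Cybb did not pass. Between KO and Het it was 0.47 (interval -0.02 to 0.96, limma adjusted p = 0.999), with values of 0.18 without KO 6, 0.29 without Het 11 and 0.90 without Het 8, none of which passed (lowest limma adjusted p = 0.996 with 1 library left out). Het and WT differed by 0.08 (interval -0.36 to 0.53), and by -0.30 without Het 8 (limma adjusted p = 1.00).

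KO 6 held both the highest Cybb value and the highest neutrophil marker sum of all libraries. Neutrophils carry the same oxidase in large amounts, and 9 of the 11 neutrophil markers could be tested. All 9 had an estimate above 0 in KO against WT, with a median log2 difference of 2.09. Of the 9, 8 were higher at an unadjusted p under 0.05, against 3.32% of all genes. At an adjusted p under 0.05 the count was 0, against 0.00734% of all genes. The marker sums of KO 9 and 12 (368 and 379) also lay above the highest Het (354) and WT (222) sums. Leaving out KO 6 therefore does not remove the difference in marker sums. Without KO 6, the KO minus WT difference of Cybb was 0.29 (limma adjusted p = 0.839). Among the 6 libraries under 30 M reads, where KO 6 was the only KO library, the difference of means was 1.08. Among the 4 libraries over 30 M it was -0.00 (KO 9 and 12 against WT 10). These differences of means had no sex term, and over 30 M they set male KO libraries against 1 female WT library. With depth class as a term in the fit over all libraries, the Cybb difference was 0.66 (limma adjusted p = 0.680). The part of the neutrophil markers, the monocyte markers and depth in the Cybb difference was not tested.

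**Figure D2:**
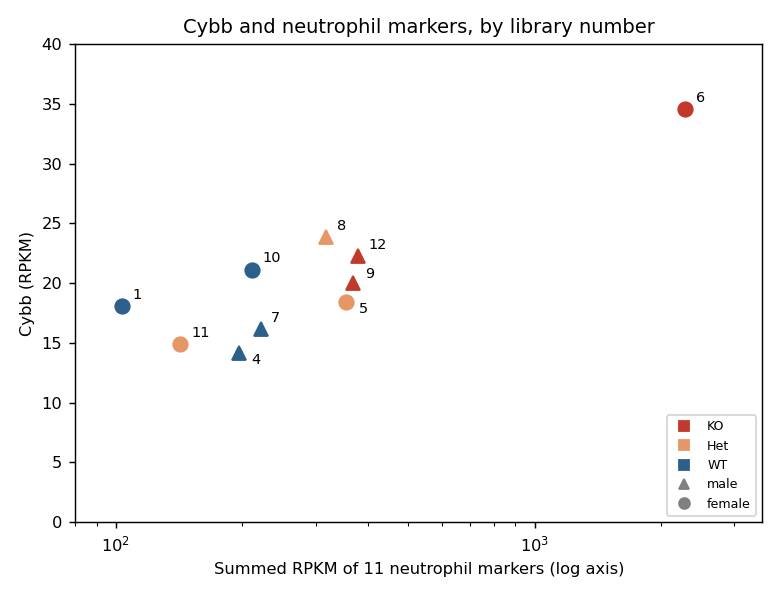
Cybb RPKM (vertical axis) against the summed RPKM of 11 neutrophil markers (horizontal log axis) in each of the 10 libraries, labelled by library number and coloured by genotype. KO 6 lies alone at 2291 and 34.6 RPKM; the other 9 libraries lie between 103 and 379 on the marker sum and between 14.2 and 23.9 RPKM of Cybb.

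Cyba encodes p22phox, the membrane partner that stabilises gp91phox, and lies at chr8:122424776-122432930 on the minus strand. Its RPKM was 36.0, 45.0 and 43.4 in KO 6, 9 and 12, 35.4, 45.5 and 48.2 in Het 5, 8 and 11, and 45.0, 42.7, 45.7 and 47.4 in WT 1, 4, 7 and 10. KO 6 and Het 5 were the 2 lowest libraries, and the other 8 lay between 42.7 and 48.2. KO and WT differed by -0.14 on the log2 scale (interval -0.41 to 0.12) and Het and WT by -0.07 (interval -0.33 to 0.20). The KO minus WT value was -0.04 without KO 6 and -0.30 with the male WT libraries left out. The level of Cybb divided by that of Cyba was therefore 0.960 in KO 6 and 0.445 and 0.514 in KO 9 and 12, against 0.310 to 0.524 in Het and 0.331 to 0.446 in WT libraries.

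Ncf1 and Ncf4 encode cytosolic subunits. Ncf1 (p47phox, the organizer that carries the complex to the membrane after phosphorylation) lies at chr5:134220053-134229625 on the minus strand. It had 164, 152 and 152 RPKM in KO 6, 9 and 12, 175, 160 and 164 in Het 5, 8 and 11, and 153, 154, 162 and 154 in WT 1, 4, 7 and 10, so that Het 5 was the highest library and all groups overlapped. The KO minus WT difference was 0.00 (interval -0.17 to 0.18) and the Het minus WT difference 0.09 (interval -0.09 to 0.26), which makes Ncf1 the most narrowly bounded of the 9 genes. Of its exon bases, 408 overlap exons of Gtf2ird2 on the opposite strand, and whether the counting used strand is not stated, so reads there cannot be told apart. Ncf4 (p40phox, which binds a phosphoinositide of phagosome membranes) lies at chr15:78244801-78262580 on the plus strand. It had 17.9, 22.0 and 20.4 RPKM in KO, 21.0, 20.4 and 19.3 in Het and 22.7, 19.7, 18.2 and 21.3 in WT libraries, in the same library order. KO 6 was lowest by a small margin, and the differences from WT were -0.02 for KO (interval -0.27 to 0.23) and -0.02 for Het (interval -0.26 to 0.23). KO 6, the library with the highest Cybb, had the lowest Ncf4 value (17.9 RPKM, against 18.2 in WT 7) and Cyba close to its lowest. Its Ncf1 value (164 RPKM) lay above every WT value. The part of the neutrophil markers in these values was not tested.

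The other partners of the oxidase did not pass the test either. Of 6 genes listed, 5 were matched by name and tested (Cybc1 was not). In limma, 0 of 5 were called and 0 of 5 had an unadjusted p under 0.05, both in KO against WT and in Het against WT. Over all genes these shares were 0.00734% and 5.13% in KO against WT, and 0% and 2.75% in Het against WT. Their median log2 difference was -0.0011 in KO against WT and 0.01 in Het against WT. Rac1, the most abundant of them and a GTPase that activates NOX2, had 432 ± 42.1 RPKM in KO, 428 ± 23.4 in Het and 462 ± 52.5 in WT libraries. Rac2, the related GTPase of blood cells, had 34.4 ± 6.25 RPKM in KO, 31.7 ± 2.71 in Het and 31.6 ± 2.34 in WT libraries. The KO and WT values of Rac2 differed by 0.10 on the log2 scale (interval -0.18 to 0.38, limma adjusted p = 0.999). Prkcd, a kinase that phosphorylates p47phox, differed by 0.01 between KO and WT (interval -0.24 to 0.26).

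Other NADPH oxidases were scarce in these libraries. Of 9 listed genes, 7 did not reach the filter: Nox3 was listed at 0 in all 10 libraries, and the highest values of Nox1, Nox4, Duox1, Duox2, Noxa1 and Duoxa2 were 0.0443, 0.404, 0.181, 0.118, 0.0649 and 0.306 RPKM. The 2 that were tested encode accessory proteins. Noxo1, an organizer of NOX1, had 4.47 ± 0.660 RPKM in KO, 3.28 ± 0.251 in Het and 4.20 ± 0.864 in WT libraries. Its KO minus Het difference was 0.46 (limma adjusted p = 0.999). Duoxa1, a maturation factor of dual oxidases, had 1.75 ± 0.398, 1.39 ± 0.208 and 2.04 ± 0.308 RPKM in the KO, Het and WT groups.

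Sod1 and Sod2 encode the cytosolic copper-zinc and the mitochondrial manganese superoxide dismutase. Sod1, at chr16:90220754-90226329 on the plus strand, had 119, 125 and 152 RPKM in KO 6, 9 and 12, 116, 141 and 140 in Het 5, 8 and 11, and 122, 129, 132 and 116 in WT 1, 4, 7 and 10. KO 12 was the highest library, and KO and WT overlapped. Its differences from WT were 0.05 for KO (interval -0.17 to 0.27) and 0.11 for Het (interval -0.11 to 0.33). Sod2, at chr17:13006846-13040063 on the plus strand, lies on the chromosome of Trem2, 35.3 Mb away. It had 13.4, 9.89 and 9.31 RPKM in KO, 11.3, 12.7 and 12.7 in Het and 9.01, 10.4, 11.9 and 10.2 in WT libraries, in the same order, so KO 6 was highest and WT 1 lowest. Sod2 differed from WT by 0.05 in KO (interval -0.27 to 0.38) and by 0.23 in Het (interval -0.10 to 0.56, limma adjusted p = 1.00).

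Cat encodes catalase, the peroxisomal enzyme that splits hydrogen peroxide, and lies at chr2:103453849-103485160 on the minus strand. It had 177, 120 and 90.6 RPKM in KO 6, 9 and 12, 144, 115 and 120 in Het 5, 8 and 11, and 110, 183, 164 and 102 in WT 1, 4, 7 and 10. High values came from WT 4, KO 6 and WT 7 and the lowest from KO 12, so the spread lay within genotypes. The mean was 129 ± 44.1 RPKM in KO, 126 ± 15.3 in Het and 140 ± 39.5 in WT libraries. The KO minus WT difference was -0.13 with the widest interval of the 9 genes (SE 0.25, interval -0.67 to 0.42), and the Het minus WT difference was -0.11 (interval -0.65 to 0.44). The KO minus WT estimate moved with the libraries included: it was -0.55 without KO 6, 0.11 without KO 12 and 0.55 with the male WT libraries left out, and none of these passed (limma adjusted p of 0.772, 0.993 and 0.383).

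Gpx1 encodes glutathione peroxidase 1, a selenium enzyme that reduces peroxides with glutathione, and lies at chr9:108338903-108340343 on the plus strand. It had 102, 100 and 112 RPKM in KO 6, 9 and 12, 99.6, 108 and 119 in Het 5, 8 and 11, and 105, 69.3, 67.5 and 107 in WT 1, 4, 7 and 10. The male WT libraries 4 and 7 were the only ones under 99 RPKM; WT 1 and WT 10 lay within the KO range. The mean was 105 ± 5.95 RPKM in KO, 109 ± 9.65 in Het and 87.2 ± 21.8 in WT libraries. KO and WT differed by 0.34 (SE 0.14, interval 0.02 to 0.66, limma adjusted p = 0.969), and the Het minus WT difference was 0.31 (interval -0.01 to 0.63, limma adjusted p = 1.00). With the 2 male WT libraries left out, a setting chosen after the values were seen, the KO minus WT difference of Gpx1 was -0.03. The Het minus WT difference was 0.03 in that setting and 0.17 without Het 8. Among the 6 libraries under 30 M reads the KO minus WT difference of Gpx1 was 0.37 (KO 6 against WT 1, 4 and 7). Among the 4 over 30 M it was -0.01 (KO 9 and 12, both male, against the female WT 10). These differences had no sex term, and both low male WT libraries were under 30 M. With depth class as a term in the fit over all libraries, the Gpx1 difference was 0.25 (limma adjusted p = 0.929).

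**Figure D3:**
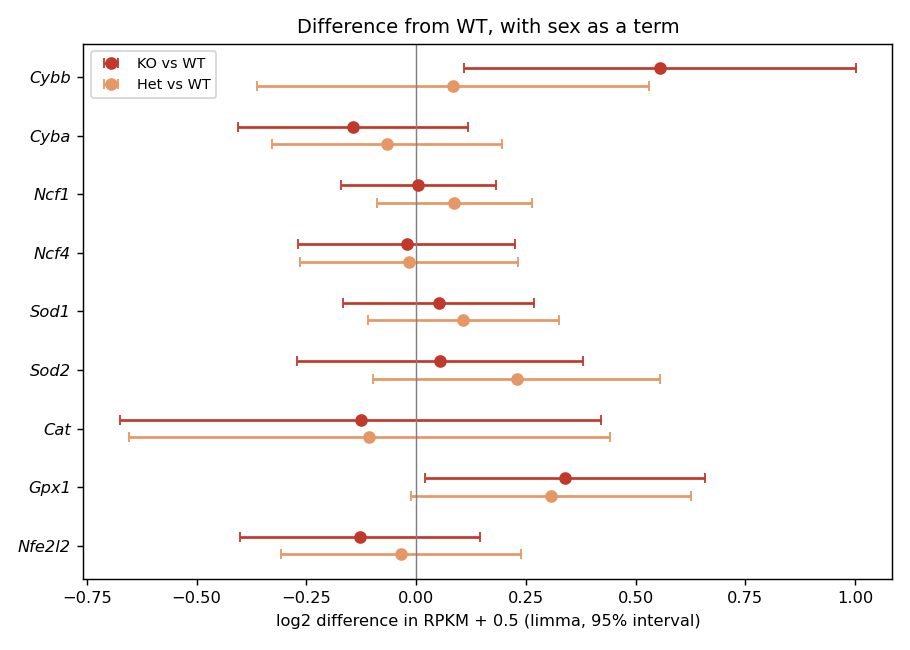
Log2 differences in RPKM + 0.5 from WT for KO and for Het libraries (horizontal axis), from limma with sex as a term, with 95% intervals. The KO intervals of Cybb (0.11 to 1.00) and Gpx1 (0.02 to 0.66) lie above 0 before adjustment, and the other 16 intervals include 0.

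Within WT, the male and female libraries lay apart for Cat and Gpx1, in opposite directions. The WT male minus WT female difference was 0.70 on the log2 scale for Cat and -0.63 for Gpx1. The level of Cat divided by that of Gpx1 was 2.64 and 2.43 in the male WT libraries 4 and 7, against 1.05 and 0.957 in the female WT libraries 1 and 10. In KO it was 1.20 and 0.812 in the males 9 and 12 and 1.73 in the female 6, and in Het it was 1.06 in the male 8 and 1.44 and 1.01 in the females 5 and 11. The order by sex seen in WT was therefore not seen in KO or Het. Within WT, 8 of 9 genes (all but Cyba) had male and female values that did not overlap, but this held for 46.1% of all genes tested, with 2 libraries in each sex. With a gap of at least 0.3 in the log2 means as well, the count was 4 of 9 (Cat, Nfe2l2, Cybb and Gpx1), against 25.9%. WT 4 and WT 7 were both under 30 M reads, as was the female WT 1. Over all 10 libraries, with genotype as a term, 0 of 9 genes were called between males and females in limma, against 0.044% of all genes, and 0 of 9 had an unadjusted p under 0.05, against 5.34%. By limma-voom the count of the 9 called was also 0. Gpx1 came nearest, at -0.26 for male minus female (limma adjusted p = 0.920). For Cat the male minus female difference over all 10 libraries was 0.03.

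**Figure D4:**
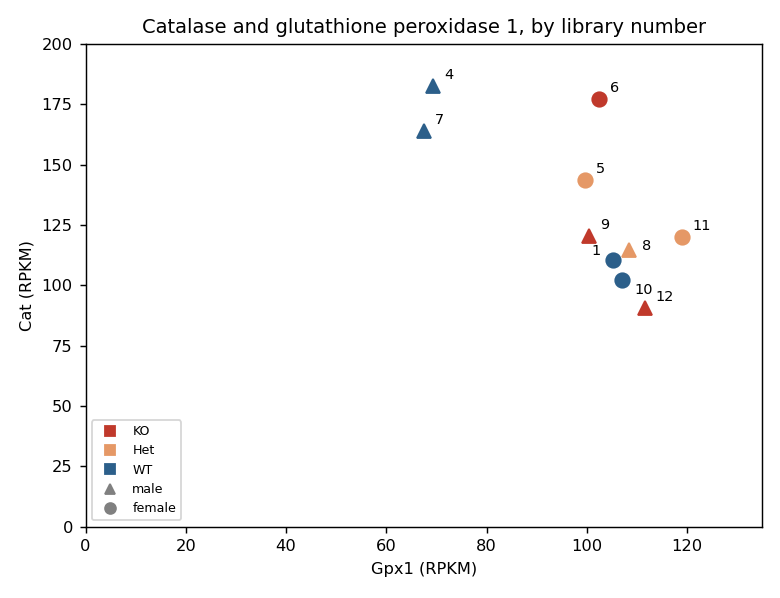
Cat RPKM (vertical axis) against Gpx1 RPKM (horizontal axis) in each of the 10 libraries, labelled by library number, with males as triangles and females as circles. The male WT libraries 4 and 7 lie at 69.3 and 67.5 RPKM of Gpx1 with 183 and 164 RPKM of Cat; the other 8 libraries lie between 99.6 and 119 RPKM of Gpx1.

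A fit with a genotype-by-sex interaction was added after these values were seen. Because it rereads the split between WT males and WT females that prompted it, it gives no independent support for a sex difference. The contrast for KO rested on 1 female KO library, number 6, which was also the one with the high neutrophil marker sum, and that for Het on 1 male Het library, number 8. Each lone library was assumed to vary like the other groups, and sex and these single libraries cannot be told apart. For the KO minus WT difference, males minus females, the estimates were -1.46 for Cat and 0.68 for Gpx1. They were -0.67 for Sod2, -0.49 for Nfe2l2, 0.45 for Ncf4, 0.35 for Cyba, -0.34 for Cybb, -0.15 for Ncf1 and 0.08 for Sod1. For the Het minus WT difference they were -0.89 for Cat and 0.87 for Cybb. Those of Gpx1, Nfe2l2, Ncf4 and Cyba were 0.62, -0.56, 0.23 and 0.20. Those of Sod2, Ncf1 and Sod1 were -0.12, -0.12 and 0.01. In limma 0 of 9 genes were called for KO, against 0.0147% of all genes, with a lowest adjusted p of 0.133 (Cat). For Het 0 of 9 were called, against 0.00734%, with a lowest adjusted p of 0.333 (Cat).

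Nfe2l2 encodes NRF2 and lies at chr2:75675513-75704641 on the minus strand. It had 235, 239 and 214 RPKM in KO 6, 9 and 12, 238, 224 and 250 in Het 5, 8 and 11, and 206, 288, 285 and 219 in WT 1, 4, 7 and 10. The male WT libraries were the highest of all 10, and KO and Het values lay between the female and the male WT values with the exception of KO 12, which lay between WT 1 and WT 10. The mean was 229 ± 13.3 RPKM in KO, 237 ± 13.3 in Het and 249 ± 42.9 in WT libraries. NRF2 transcripts differed between KO and WT by -0.13 (interval -0.40 to 0.15) and between Het and WT by -0.03 (interval -0.31 to 0.24). The KO minus WT value was -0.23 without KO 6, -0.06 without KO 12 and 0.17 with the male WT libraries left out.

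Genes that NRF2 controls, or that control NRF2, gave no call. Of 16 tested, 0 were called in KO against WT, against 0.00734% of all genes. At an unadjusted p under 0.05, 0 were higher and 1 was lower, against 3.32% and 1.81% of all genes. The median log2 difference was 0.03, as over all genes. In Het against WT 0 of 16 were called, against 0% of all genes, with a median of 0.07 against 0.00 over all genes. Hmox1, the heme oxygenase gene and the most abundant of the list, had 277 ± 14.1 RPKM in KO, 300.3 ± 42.3 in Het and 270.4 ± 34.4 in WT libraries. Maff, which encodes a small MAF protein that pairs with NRF2, was the 1 gene lower in KO at an unadjusted p under 0.05. It had 36.6, 35.9 and 40.3 RPKM in KO 6, 9 and 12, 51.3, 57.4 and 46.9 in Het 5, 8 and 11, and 56.5, 50.4, 43.1 and 54.7 in WT 1, 4, 7 and 10. All 3 KO libraries lay below all Het and WT libraries. Ranges lay apart for 4.59% of all genes in KO against WT and 7.42% in KO against Het. Maff was named for its small p in KO against WT, so separated ranges add no support. Its KO minus WT difference of -0.43 (SE 0.12) had a limma adjusted p of 0.913. Cul3, which encodes part of the ligase that degrades NRF2, differed by 0.01 between KO and WT, and Blvrb, a biliverdin reductase gene, by 0.42 (limma adjusted p = 0.977).

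In the glutathione system, 0 of 15 genes were called in KO against WT, against 0.00734% of all genes. At an unadjusted p under 0.05, 1 of 15 was higher (Mgst1) and 1 was lower (Gsto1), against 3.32% and 1.81% of all genes. The median log2 difference was 0.08, against 0.03 over all genes. In Het against WT 0 of 15 were called, against 0% of all genes. At an unadjusted p under 0.05, 1 was higher and 0 were lower, against 2.75% of all genes in either direction. The median in Het against WT was 0.04, against 0.00 over all genes. Mgst1, a membrane glutathione transferase gene, had 2.49 ± 1.14 RPKM in KO, 1.99 ± 0.492 in Het and 1.36 ± 0.495 in WT libraries (KO minus WT 0.74, limma adjusted p = 0.942). Its value in KO 6 was 3.79 RPKM, against 1.70 and 1.98 in KO 9 and 12. Gsto1, an omega-class glutathione transferase gene, had 14.8 ± 2.98 RPKM in KO, 15.9 ± 3.09 in Het and 19.6 ± 2.24 in WT libraries (KO minus WT -0.39, limma adjusted p = 0.969). Gclc, the catalytic subunit of the enzyme that starts glutathione synthesis, had 47.8 ± 4.12, 48.7 ± 4.21 and 47.9 ± 2.18 RPKM in the KO, Het and WT groups.

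A further list held thioredoxin and peroxiredoxin genes, Sod3, the extracellular superoxide dismutase gene, and Ccs, the gene of the copper chaperone of SOD1. Of its genes, 0 of 14 were called in KO against WT, against 0.00734% of all genes. At an unadjusted p under 0.05, 1 of 14 (Txn1) was higher, against 3.32% of all genes. The median log2 difference was 0.07. In Het against WT 0 of 14 were called, against 0% of all genes, and 0 had an unadjusted p under 0.05, against 2.75%. The estimate was above 0 for 11 of 14, with a median of 0.15 against 0.00 over all genes. Gclc, Gclm and Slc7a11 of the glutathione list and Srxn1 and Txnrd1 of this list also stand on the NRF2 list. Txn1, the cytosolic thioredoxin gene, had 27.1, 19.8 and 16.5 RPKM in KO 6, 9 and 12, 16.9, 18.0 and 15.8 in Het 5, 8 and 11, and 14.7, 13.04, 16.5 and 14.5 in WT 1, 4, 7 and 10. KO 6 was the highest library for this gene too, and KO and WT overlapped. Between KO and WT the difference of Txn1 was 0.51 (SE 0.15, limma adjusted p = 0.927). Prdx5, a peroxiredoxin gene, had 38.6 ± 11.8 RPKM in KO, 34.6 ± 4.79 in Het and 26.6 ± 11.6 in WT libraries, and the male WT libraries 4 and 7 held its 2 lowest values (13.5 and 20.6 RPKM). Txnip, which encodes an inhibitor of thioredoxin, differed by 0.01 between KO and WT.

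**Figure D5:**
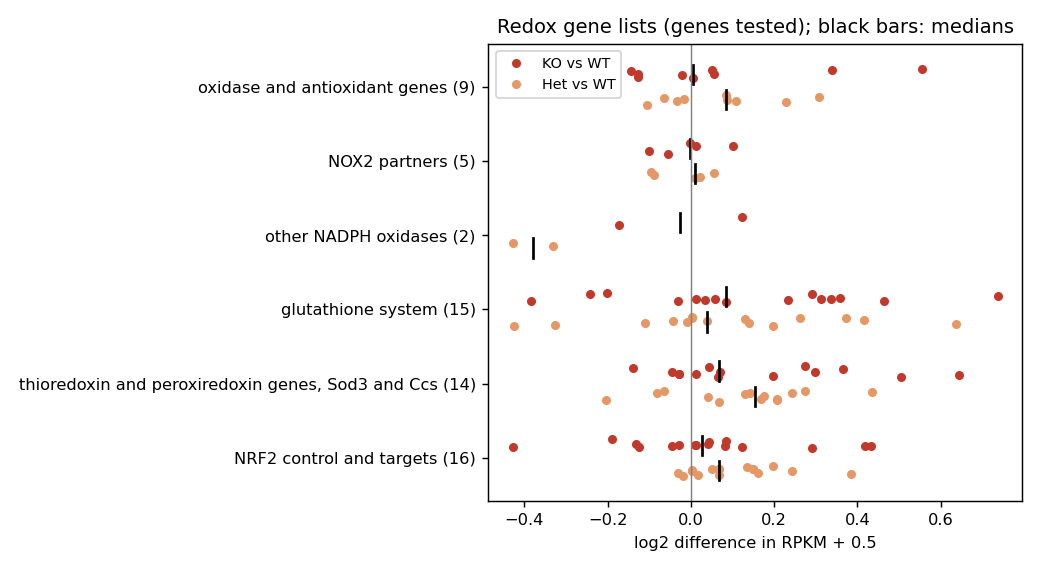
Log2 differences in RPKM + 0.5 of each tested gene (points) in KO against WT and Het against WT, by list, with black bars at the medians; vertical scatter within a row only separates points. The medians lie between -0.03 and 0.08 in KO against WT. In Het against WT they lie between -0.38 (other NADPH oxidases, 2 genes) and 0.15 (thioredoxin and peroxiredoxin list, 14 genes). In limma's test 0 of the plotted genes passed at an adjusted p under 0.05.

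The genes whose profiles over the 10 libraries were most like that of Cybb were Thbs1, Plbd1 and Trappc2l, with root-mean-square log2 differences of 0.138, 0.141 and 0.160 after each profile was centred on its mean, against a median of 0.379 over 5130 genes. For Nfe2l2 they were Capns1, Tmem173 and Abhd12, at 0.05, 0.0602 and 0.0614, against a median of 0.217.

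Per lost copy of Trem2, the slope of Cybb was 0.27 on the log2 scale (interval 0.05 to 0.48, limma adjusted p = 0.850) and that of Gpx1 0.18 (interval 0.02 to 0.33, limma adjusted p = 0.865). No gene of the 9 was called, against 0.00734% of all genes, and these 2 of 9, both with a slope above 0, had an unadjusted p under 0.05, against 5.43% of all genes and 3.47% with such a slope above 0. The Cybb slope was 0.14 without KO 6 (limma adjusted p = 0.797), and the Gpx1 slope was -0.02 with the 2 male WT libraries left out.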

How the data were processed

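The authors deposited RPKM values (reads scaled to gene length and to the library total), 1 linear value per gene and library. The submitters' processing notes name STAR, HTSeq, edgeR, limma and the build mm10; no version or annotation is given in the sources used here. Of 24060 names, 27 that a spreadsheet had turned into dates were left out. For all 19983 genes above 0 the RPKM were whole multiples of 1 read (within 0.0005 reads or a relative 3e-08), which gave the depths.

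After a log2(RPKM + 0.5) transform, 13621 genes (0.5 RPKM or more in 3 or more libraries) were fitted with limma 3.58.1 in R 4.3.3 (limma-trend, all 10 libraries, genotype and sex as terms), two-sided, with Benjamini-Hochberg adjustment over all genes tested and a threshold of 0.05. Sex was compared with genotype as a term. On this log2 scale the differences of low genes are understated. The fit was tested on simulated reads with the same spread setting for every gene and no sex effect. That test does not show how well differences in these 9 genes could be found. Alternatives changed the pseudocount, filter, scaling, weights, tool and sex term and left out each library; depth class as a term, leaving out the male WT libraries, differences within depth classes and the genotype-by-sex fit were chosen after seeing the data. Members and lists were chosen with earlier results of these data known, and 1 gene was later taken off a list and is not reported here. Besides the 9 genes, the 2 most abundant genes and the 2 with the smallest p in KO against WT of each redox list are named, and the 3 profiles nearest to Cybb and Nfe2l2 among genes with a mean of at least 10 RPKM. Coordinates are from GENCODE M21 (GRCm38), which may differ from the authors' annotation. Promoters are from RefSeq (GRCm38.p6).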

Additional observations from a re-analysis of the deposited data

Results flagged for a closer look

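Among the 27 groups of 4 or 5 libraries examined for the 9 genes (WT, male and female libraries), 2 held a library far from the others; chance alone flags about 1 in 20 groups. For Ncf1 in WT libraries, WT 7 had 162 RPKM against 154 RPKM in the nearest WT library, a gap of 0.875 of the group's range, above Dixon's 95% critical value for 4 libraries. For Sod1 in female libraries, Het 11 had 140 RPKM against 122 RPKM in the nearest female library, a gap of 0.745 of the range, above the critical value for 5 libraries. WT 7 was under and Het 11 over 30 M recovered reads.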

How the results depend on the processing

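Under all 21 alternative settings 0 of the 9 genes were called in any genotype or sex comparison. Of 440 recomputed values for these genes, 403 kept their direction and their side of the threshold and 37 changed direction; none of the 440 passed (lowest limma adjusted p = 0.383). The cause was not tested. With median-ratio scaling, sample quality weights and no sex term the KO minus WT difference of Ncf1 was -0.029, -0.014 and -0.0015. With sample quality weights the KO minus WT difference was 0.069 for Ncf4, -0.023 for Sod1 and -0.039 for Sod2, and the Het minus WT difference 0.04 for Cat and 0.031 for Nfe2l2. With depth class as a term the KO minus WT difference of Cat was 0.074. With the male WT libraries left out, the KO minus WT difference was 0.55 for Cat, -0.032 for Gpx1 and 0.17 for Nfe2l2, the Het minus WT difference -0.031 for Cybb, 0.40 for Cat and 0.19 for Nfe2l2, the Gpx1 slope -0.0197 and the Gpx1 male minus female difference 0.021. Leaving out 1 library at a time, the KO minus WT difference ranged from -0.034 to 0.037 for Ncf1, -0.091 to 0.11 for Ncf4, -0.027 to 0.11 for Sod1, -0.18 to 0.15 for Sod2 and -0.55 to 0.11 for Cat, and the Het minus WT difference from -0.30 to 0.28 for Cybb, -0.17 to 0.051 for Cyba, -0.067 to 0.047 for Ncf4, -0.28 to 0.032 for Cat and -0.12 to 0.10 for Nfe2l2. Without a change of direction, the KO minus WT difference ranged from -0.20 to -0.041 for Cyba, -0.23 to -0.057 for Nfe2l2 and 0.25 to 0.50 for Gpx1, and the Het minus WT difference from 0.056 to 0.11 for Ncf1, 0.038 to 0.17 for Sod1, 0.14 to 0.30 for Sod2 and 0.17 to 0.41 for Gpx1. The KO minus WT difference of Cybb ranged from 0.29 without KO 6 to 0.68 without KO 9. It was 0.32 with sample quality weights and 0.66 with depth class as a term. Over all genes, 1 was called in KO against WT, 2 with sample quality weights, with limma-voom and with depth class as a term, 3 with the male WT libraries left out, and 1 to 3 with 1 library left out (3 without KO 6). In Het against WT 0 were called, and 1 with limma-voom. For the slope 1 was called, 2 with sample quality weights and with limma-voom, 7 with the male WT libraries left out, and 1 to 3 with 1 library left out (3 without KO 6). No paired analysis was possible because the genotypes share no replicate number. With 3 or 4 libraries a group, the 95% intervals of the 9 genes in KO against WT had a median width of 0.55 on the log2 scale. This width shows how closely the differences were estimated and is not a limit of detection. Small differences could go uncalled. The intervals are not adjusted for the number of genes tested, so a difference whose interval leaves out 0 could also go uncalled. Cybb (0.55) and Gpx1 (0.34) had intervals above 0 and did not pass.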
